A study of Mus musculus with 8 samples.

Results

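The genes described here encode enzymes of cholesterol synthesis and the transcription factor that drives them. A list of 8 symbols was read from the left ventricle arrays: Hmgcs1, Sqle, Idi1, Fdps, Fdft1, Lss, Cyp51 and Srebf2. Probe sets annotated with a single gene symbol were used, and each gene found had 1 such probe set. This gave 7 of the 8 genes, out of 22180 genes measured in the series. Idi1, the isopentenyl diphosphate isomerase, shares its probe set with a second symbol, so no value was read for it. All 7 genes were among the 13872 genes tested. Of these, 6 are enzymes and Srebf2 is the regulator.

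Cells make cholesterol from acetyl-CoA in a long chain of steps in the cytosol and endoplasmic reticulum. The mevalonate part yields isoprenoids, and the squalene and lanosterol steps are committed to sterols. The transcription factor SREBP-2, the product of Srebf2, is held in the endoplasmic reticulum by INSIG proteins when sterols are plentiful. When sterols are low, SCAP carries it to the Golgi, where the proteases encoded by Mbtps1 and Mbtps2 release its active part. It then binds sterol regulatory elements beside most genes of the pathway, its own included, usually with NF-Y or Sp1 bound nearby. Heart muscle can make cholesterol and also takes it up from lipoproteins.

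Left ventricle RNA of C57BL/6 female mice aged 3 to 4 months was measured on 8 arrays. The groups were day 12 of pregnancy (replicates 2 and 3), day 19 of pregnancy (replicates 1 and 2), day 1.5 post-partum (replicates 2 and 4) and non-pregnant mice in diestrus, a phase of the estrous cycle (replicates 2 and 3). The protocol describes the late group as 18/19 days. The labels name no transgene or drug in any group. A single piece of each dissected ventricle was used, so the values are an average over all cell types of that piece. In such bulk tissue, fewer cells of a type and less RNA per cell cannot be told apart.

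The array of day 19 replicate 2 stood apart. Its correlation with the other arrays over all probe sets was 0.969 to 0.977. Markers of macrophages (6 of 6 measured) averaged 9.75 log2 on it and 8.46 on day 19 replicate 1, against 8.32 and 8.39 in diestrus, and 6 interferon-stimulated genes averaged 8.41 and 6.60, against 6.32 and 6.41. The macrophage markers averaged 8.31 and 8.45 at day 12 and 8.45 and 8.78 post-partum. The interferon-stimulated genes averaged 6.84 and 6.73 at day 12 and 6.37 and 6.65 post-partum. The 5 fibroblast and 5 endothelial markers were lowest on day 19 replicate 2, at 8.87 and 9.75, against 9.13 to 9.57 and 10.03 to 10.27 on the other arrays. The 5 cardiomyocyte markers averaged 11.54 to 11.84 on all 8 arrays and each was above the median of all values. Atrial markers ranged more widely, with 9.37 on day 19 replicate 1, 7.38 on day 12 replicate 3 and 6.64 on diestrus replicate 3, against 4.84 to 5.08 on the other arrays. The 5 adipocyte markers averaged 5.07 and 6.07 at day 12, 6.39 and 5.18 at day 19, 5.43 and 5.51 post-partum and 5.34 and 5.73 in diestrus, and Adipoq, the defining marker, averaged below the median of all values. The 2 red cell markers measured averaged 5.12 and 5.15 in diestrus and 5.46 to 6.25 on the other arrays, with Epb42 below the median of all values. Mesothelium markers, of which Msln and Krt19 were below that median, averaged 6.60 on day 19 replicate 1 and 5.22 to 5.81 on the other arrays. What part these differences had in the values below was not tested.

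Promoter sequence from RefSeq (GRCm38.p6, 250 bases before to 50 bases after the start) was held for 5 of the listed genes: Hmgcs1, Idi1, Lss, Cyp51 and Srebf2. It was not held for Sqle, Fdps and Fdft1. Both strands were searched for TCACNCCA, a form of the sterol regulatory element, for CCAAT, the NF-Y box, and for GGGCGG, the GC box read by Sp1. These motifs did not overlap in the promoters printed here. TCACNCCA was found in Hmgcs1 and Srebf2, that is in 2 of the 5 genes, against 4.36% of 32851 mouse promoters. This form was settled after longer and shorter forms had been tried on these promoters, so the contrast is a description only. CCAAT was found in 5 of 5, against 37.4% of all promoters, and GGGCGG in 5 of 5, against 35.7%. A match describes letters in these windows and does not show a bound site. Among the other cholesterol synthesis enzymes with a promoter in the table, TCACNCCA was found in 1 of 13, CCAAT in 12 and GGGCGG in 11.

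The promoters of Srebf2, Hmgcs1 and Cyp51 are shown because Srebf2 encodes the regulator, and Hmgcs1 and Cyp51 were the members whose values were most alike across the arrays. Capitals mark the 3 motifs on either strand, so that ATTGG is CCAAT and CCGCCC is GGGCGG on the opposite strand. Srebf2 lies at chr15:82147019-82147318 (plus strand), Hmgcs1 at chr13:119690101-119690400 (plus strand) and Cyp51 at chr5:4104648-4104947 (minus strand), each written 5′ to 3′ along the gene.
Srebf2: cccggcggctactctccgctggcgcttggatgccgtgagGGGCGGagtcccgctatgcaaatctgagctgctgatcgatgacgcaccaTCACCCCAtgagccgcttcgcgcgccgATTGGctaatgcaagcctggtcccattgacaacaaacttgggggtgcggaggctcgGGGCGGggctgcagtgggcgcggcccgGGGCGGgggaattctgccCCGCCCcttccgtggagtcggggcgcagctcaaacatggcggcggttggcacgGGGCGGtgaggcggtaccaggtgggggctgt
Hmgcs1: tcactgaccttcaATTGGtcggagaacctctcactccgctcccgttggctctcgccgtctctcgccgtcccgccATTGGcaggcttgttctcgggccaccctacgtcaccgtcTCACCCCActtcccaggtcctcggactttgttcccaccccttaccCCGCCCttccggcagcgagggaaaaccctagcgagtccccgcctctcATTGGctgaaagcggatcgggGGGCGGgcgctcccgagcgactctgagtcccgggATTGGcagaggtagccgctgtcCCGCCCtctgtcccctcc
Cyp51: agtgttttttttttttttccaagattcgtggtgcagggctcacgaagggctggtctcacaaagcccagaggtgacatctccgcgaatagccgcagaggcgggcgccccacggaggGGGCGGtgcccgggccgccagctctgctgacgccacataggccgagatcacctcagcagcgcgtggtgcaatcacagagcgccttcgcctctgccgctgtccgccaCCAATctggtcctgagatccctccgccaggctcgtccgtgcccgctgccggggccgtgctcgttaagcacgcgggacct
In Hmgcs1 the sequence TCACCCCA stands at positions -137 to -130 from the start, and ATTGG at 4 places, of which those at -176 to -172 and -45 to -41 are the nearest on either side. In Srebf2 the same 8 letters stand at -162 to -155, with ATTGG at -135 to -131. Cyp51 holds CCAAT at -29 to -25 and no TCACNCCA in this window.

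No gene of the pathway passed the test in any state of pregnancy or post-partum, and 0 of all 13872 genes tested did. The result is therefore not particular to this pathway. Values are log2 RMA expression, in which 1 unit is a doubling, and levels of different genes are not compared because each probe set has its own response. Differences are given with their moderated standard error from limma, fitted to all 8 arrays with p-values adjusted over all 13872 genes. A gene was called at an adjusted p under 0.05. Over the 7 genes and 5 comparisons, the adjusted p was 0.589 to 1, and over the 3 states together (moderated F test) 0.726 to 0.941.

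Srebf2, the regulator, was 8.02 and 7.76 at day 12, 7.90 and 8.11 at day 19, 7.76 and 7.99 post-partum and 8.11 and 8.01 in diestrus. Its arrays spanned 0.35 log2 units, the narrowest range of the 7 genes. By group mean it was lowest post-partum (7.88) and at day 12 (7.89) and highest in diestrus (8.06), with day 19 between them, and only the post-partum and diestrus arrays did not overlap. Srebf2 differed from diestrus by -0.17 ± 0.16 log2 at day 12, -0.059 ± 0.16 at day 19 and -0.18 ± 0.16 post-partum (SE). The 95% intervals of these differences reached no further than -0.55 and 0.31 log2.

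Hmgcs1 encodes the cytosolic HMG-CoA synthase, which makes the substrate of the rate-limiting reductase. It was 8.01 and 8.08 at day 12, 8.11 and 7.55 at day 19, 8.01 and 7.86 post-partum and 7.97 and 7.74 in diestrus. The day 19 arrays held both its highest and its lowest value. Both day 12 arrays were above both diestrus arrays, with a difference of 0.19 ± 0.20 log2 (95% interval -0.27 to 0.65, adjusted p = 1). At day 19 the difference from diestrus was -0.025 ± 0.20, and it was 0.25 without replicate 2 and -0.30 without replicate 1. Post-partum it was 0.082 ± 0.20. The group means were 8.05 at day 12, 7.83 at day 19, 7.94 post-partum and 7.85 in diestrus, and none of the 5 comparisons passed the test.

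Fdps, the farnesyl diphosphate synthase that ends the part of the pathway shared with other isoprenoids, was 7.38 and 7.56 at day 12, 7.48 and 7.51 at day 19, 7.21 and 7.52 post-partum and 7.63 and 7.31 in diestrus. The arrays of every state overlapped with diestrus. Its differences from diestrus were 0.0012, 0.026 and -0.10 log2 at day 12, day 19 and post-partum, each with an SE of 0.17. The 95% intervals of the first and second ran from -0.39 to 0.39 and from -0.37 to 0.42.

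Fdft1 encodes squalene synthase, the first enzyme committed to sterols. It was 9.69 and 9.55 at day 12, 9.59 and 9.45 at day 19, 9.07 and 9.50 post-partum and 9.68 and 9.81 in diestrus. The group means stood at 9.28 post-partum, 9.52 at day 19, 9.62 at day 12 and 9.75 in diestrus, and both day 19 arrays and both post-partum arrays were below both diestrus arrays. The post-partum difference from diestrus was -0.47 ± 0.17 log2, 0.724-fold (95% interval 0.55 to 0.953, limma, adjusted p = 0.722). It was -0.25 without post-partum replicate 2, the array with the lowest value, and -0.68 without replicate 4. At day 12 and day 19 the differences were -0.13 and -0.23 (SE 0.17).

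Sqle encodes squalene epoxidase, which adds oxygen to squalene and is a rate-limiting enzyme of the sterol branch. It was 4.82 and 5.02 at day 12, 5.44 and 5.33 at day 19, 5.03 and 5.03 post-partum and 5.37 and 5.28 in diestrus. The 4 arrays of day 12 and post-partum were all below the 4 arrays of day 19 and diestrus. This split was picked from the values seen, and the share of all genes with such a split was not counted. The difference between day 12 and diestrus was -0.40 ± 0.13 log2, 0.757-fold (limma, adjusted p = 1), and between post-partum and diestrus -0.29 ± 0.13 (adjusted p = 0.722). Day 19 differed from diestrus by 0.063 ± 0.13.

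The widest Sqle difference was that between day 19 and day 12, 0.46 ± 0.13 log2 or 1.38-fold (95% interval 1.11 to 1.71, limma, adjusted p = 0.675). Post-partum and day 19 differed by -0.35 ± 0.13 (adjusted p = 0.589). With each array left out in turn, the day 19 and day 12 difference ranged from 0.37 to 0.56 and the day 12 and diestrus difference from -0.50 to -0.30. The level was low: only the means of day 19 (5.39) and diestrus (5.32) reached 5.19, the median of all values that a group had to reach for a gene to be tested, while day 12 averaged 4.92 and post-partum 5.03. Sqle was thus tested through the groups in which it was higher.

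Lss, the lanosterol synthase that closes the sterol ring system, was 5.50 and 5.16 at day 12, 5.52 and 5.54 at day 19, 5.36 and 5.38 post-partum and 5.27 and 5.81 in diestrus. Its lowest and highest values were those of day 12 replicate 3 and diestrus replicate 3. The differences from diestrus were -0.21, -0.0072 and -0.17 log2 at day 12, day 19 and post-partum (SE 0.20), within the spread of the diestrus arrays. Both day 19 arrays were above both arrays of day 12, by 0.20 ± 0.20, and above both post-partum arrays. The level was near 5.19, the median of all values, with group means from 5.33 at day 12 to 5.54 in diestrus.

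Cyp51 encodes the lanosterol demethylase, a cytochrome P450. It was 5.99 and 5.90 at day 12, 5.91 and 5.16 at day 19, 6.06 and 5.87 post-partum and 6.36 and 5.90 in diestrus. Day 19 replicate 2 was far below the other arrays, which lay between 5.87 and 6.36. The range over the arrays, 1.20 log2 units, was wider than that of 91.6% of the genes tested, whose median range was 0.56. The difference between day 19 and diestrus was -0.60 ± 0.26 log2 (limma, adjusted p = 0.657). Without day 19 replicate 2 it was -0.22, and without day 19 replicate 1 it was -0.97 with an adjusted p of 0.0345, in a fit that called 8.89% of all genes tested in this comparison. That fit leaves day 19 with the array that stood apart, which is assumed to vary as the arrays of the other groups do, so its p is no replicate check of day 19. Without diestrus replicate 2 it was -0.37. Day 12 and post-partum differed from diestrus by -0.19 and -0.17 (SE 0.26).

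**Figure D1:**
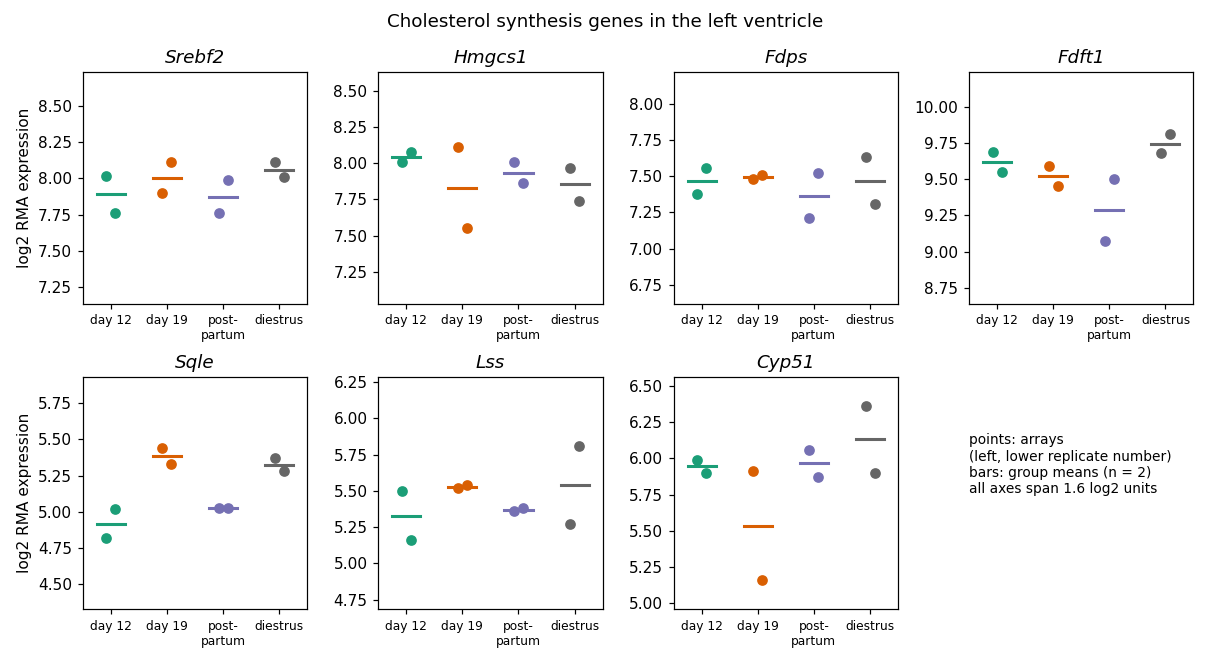
Log2 RMA expression (vertical axis) of the 7 genes on each array (points) in the 4 groups, with group means as bars. Sqle lies at 4.82 to 5.03 at day 12 and post-partum and at 5.28 to 5.44 at day 19 and in diestrus, with no difference past the test. Cyp51 and Hmgcs1 each have 1 low array at day 19.

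The counts over the 7 genes are given beside those over all genes, and the members were not tested against that background. Between day 12 and diestrus 0 of 7 were called, as were 0% of all genes tested, and an unadjusted limma p under 0.05 was found for 1 of 7 (Sqle), against 2.31% of all genes. Of the 7 genes, 2 had a higher and 5 a lower mean at day 12, with a median log2 difference of -0.17, where the median of all genes was 0.017. Fdps, counted as higher, differed by only 0.0012, and the share of all genes with a lower mean was not counted. Both day 12 arrays were above both diestrus arrays for Hmgcs1 (1 of 7, 21.7% of all genes) and below them for Sqle (1 of 7, 15.6%).

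Between day 19 and diestrus 0 of 7 were called (0% of all genes), and no member had an unadjusted limma p under 0.05, against 7.29% of all genes. The median log2 difference was -0.025, beside -0.029 over all genes. Both day 19 arrays were above both diestrus arrays for 0 of 7 genes (16.4% of all genes) and below them for Fdft1 alone (1 of 7, 20.4%).

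Between post-partum and diestrus 0 of 7 were called (0% of all genes), and Fdft1 alone had an unadjusted limma p under 0.05 (1 of 7, 6.62% of all genes). Of the 7 genes, 6 had a lower mean post-partum, with a median log2 difference of -0.17 against -0.0037 over all genes. The share of all genes with a lower mean was not counted. Leaving out some single arrays turned the lower means of Fdps, Lss and Cyp51 higher, and the higher mean of Hmgcs1 lower. Both post-partum arrays were below both diestrus arrays for Fdft1, Sqle and Srebf2 (3 of 7, 21.7% of all genes) and above them for 0 of 7 (21.1%). The 3 comparisons share the diestrus arrays, so their directions are not independent of each other.

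**Figure D2:**
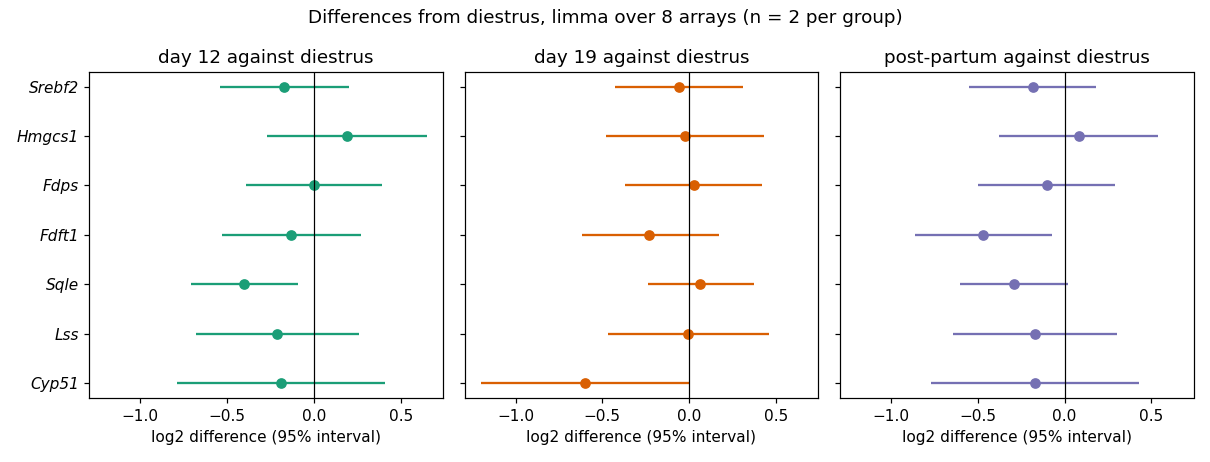
Log2 differences between each state and diestrus (points) with 95% intervals (lines) from limma, 2 arrays per group. The intervals of Sqle at day 12 and Fdft1 post-partum lie below 0, and both have adjusted p-values of 0.722 or more.

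The successive states were compared in the same way. Day 19 and day 12 gave 0 of 7 called (0% of all genes) and an unadjusted limma p under 0.05 for Sqle (1 of 7, 6.47% of all genes). Both day 19 arrays were above both day 12 arrays for Lss and Sqle (2 of 7, 16.3%) and below them for 0 of 7 (23.2%). Post-partum and day 19 gave 0 of 7 called (0%) and an unadjusted limma p under 0.05 for Sqle (1 of 7, 8.25%). Both post-partum arrays were below both day 19 arrays for Lss and Sqle (2 of 7, 14.3%) and above them for 0 of 7 (19.0%). The medians of the members were 0.025 and -0.13 log2 for these comparisons, against -0.042 and 0.013 over all genes. By the moderated F test over the 3 states, 0 of 7 members and 0% of all genes were called.

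The precision of 2 arrays per group set what could be seen. The half-width of the 95% interval of a member's difference was 0.31 to 0.60 log2, that is 1.24-fold to 1.52-fold, before any adjustment for the number of genes. Over all genes an unadjusted limma p under 0.05 was found for 321, 1011 and 918 genes at day 12, day 19 and post-partum against diestrus, and the smallest adjusted p was 0.329, 0.181 and 0.445. Differences within a member's half-width could not be told from 0 even before adjustment. Wider ones did not pass after it either, as for Sqle between day 19 and day 12 (0.46 log2, limma, adjusted p = 0.675).

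Of the other enzymes of cholesterol synthesis, 12 of 14 listed were measured and tested. In each of the 5 comparisons 0 of the 12 passed in either direction, beside 0% of all genes tested. The median log2 difference of the 12 enzymes from diestrus was 0.024 at day 12 (8 higher, 4 lower), -0.025 at day 19 (4 higher, 8 lower) and -0.058 post-partum (4 higher, 8 lower). The share of all genes in each direction was not counted. At day 12 the smallest p-values were those of Tm7sf2 and Hsd17b7, a sterol reductase and a ketosteroid reductase of the late steps (0.26 ± 0.21 and 0.30 ± 0.30 log2, and 0.12 and 0.022 without day 12 replicate 2), the phosphomevalonate kinase Pmvk (0.15) and the sterol oxidase Msmo1 (-0.11). At day 19 they were those of the desaturase Sc5d (-0.34), the isomerase Ebp (0.21), the final reductase Dhcr7 (-0.21) and Lbr, a nuclear membrane protein with sterol reductase activity (-0.16). Without day 19 replicate 2, Sc5d gave -0.022, Ebp -0.014 and Dhcr7 0.052.

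Post-partum, Ggps1 had the lowest unadjusted p of this group. The enzyme makes geranylgeranyl diphosphate, a lipid anchor of small GTPases, and so leads away from cholesterol. Ggps1 was 8.65 and 8.85 at day 12, 8.77 and 8.50 at day 19, 7.84 and 8.47 post-partum and 8.75 and 8.75 in diestrus. Both post-partum arrays were below all other arrays, and replicate 2 lay well below replicate 4. The share of all genes with such a split was not counted. The difference from diestrus was -0.60 ± 0.22 log2 (limma, adjusted p = 0.722), and -0.28 without replicate 2. Nsdhl, Lbr and Mvd, a sterol dehydrogenase, the reductase named above and the mevalonate diphosphate decarboxylase, gave -0.26, -0.25 and 0.23.

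**Figure D3:**
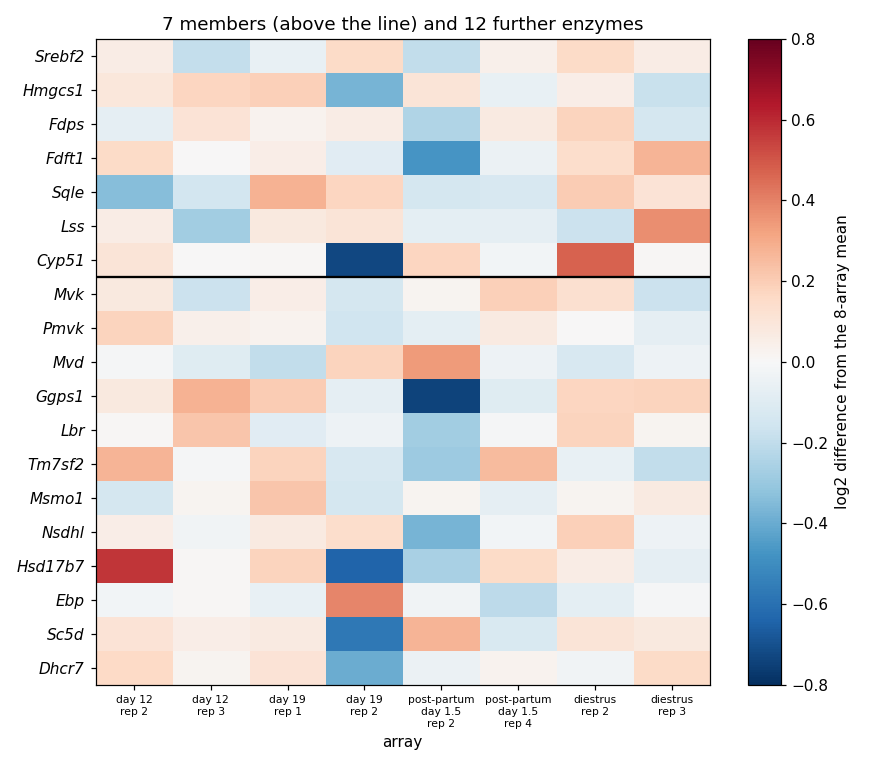
Log2 difference of each array from the gene's mean over 8 arrays, for the 7 members (above the line) and 12 further enzymes. The 8 strongest blue cells fall on day 19 replicate 2 and post-partum replicate 2 and concern different enzymes.

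Most enzymes were lowest on day 19 replicate 2 or post-partum replicate 2, arrays on which many other genes were lowest too. Of the 18 enzymes measured (6 members and 12 others), 6 were lowest on day 19 replicate 2: Cyp51, Dhcr7, Hmgcs1, Hsd17b7, Pmvk and Sc5d. Another 6 were lowest on post-partum replicate 2: Fdft1, Fdps, Ggps1, Lbr, Nsdhl and Tm7sf2. Over all genes tested, 32.1% were lowest on day 19 replicate 2 and 20.9% on post-partum replicate 2. The remaining 6 enzymes were spread over 5 of the other 6 arrays.

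The members did not share a single pattern over the arrays. As a description over 8 arrays, Pearson's r between members ranged from -0.64 for Hmgcs1 with Srebf2 to 0.71 for Hmgcs1 with Cyp51, which were both lowest on day 19 replicate 2. Fdft1 and Srebf2 had an r of 0.55. Sqle had an r of -0.28 with Hmgcs1 and of 0.23 with Fdft1. All of these values come from the same 8 arrays, and array-wide differences enter each of them.

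The genes with the profile most like the mean of the 7 members, by Pearson's r over the 8 arrays, were Ranbp9 (0.977), Mettl14 (0.954), Smdt1 (0.944), Htra3 (0.939) and Eif2ak3 (0.935). An r of 0.9 or more was found for 29 genes, 0.209% of those tested. Ranbp9, the closest, was 8.59 and 8.52 at day 12, 8.60 and 8.44 at day 19, 8.45 and 8.53 post-partum and 8.72 and 8.65 in diestrus, a range of 0.28 log2. The mean profile itself was small, from -0.12 on post-partum replicate 2 to 0.15 on diestrus replicate 2. The members, each a part of that mean, had an r with it from 0.18 for Lss to 0.77 for Fdft1. Among the other enzymes of the pathway r ran from -0.79 for Mvd to 0.66 for Ggps1, with Nsdhl at 0.57 and Dhcr7 at 0.51.

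Genes that control SREBP were measured for 7 of 8 listed, and 0 of 7 passed in either direction in any comparison (0% of all genes). Their median log2 differences from diestrus were 0.093 at day 12, -0.064 at day 19 and -0.032 post-partum. Insig1, a sterol-sensing anchor and itself a target of SREBP, was 8.07 and 8.01 at day 12, 8.01 and 7.52 at day 19, 8.04 and 7.90 post-partum and 7.98 and 7.95 in diestrus. Its lowest value fell on day 19 replicate 2, as did those of Hmgcs1, Cyp51 and 32.1% of all genes tested. On that array Sqle, Lss, Fdps and Srebf2 were above their 8-array means, by 0.17, 0.10, 0.06 and 0.15 log2, and Fdft1 was below its mean (-0.09). The day 19 difference of Insig1 was -0.20 ± 0.18 log2, and 0.050 without replicate 2. Mbtps2, the site-2 protease, gave -0.43 ± 0.18 post-partum (limma, adjusted p = 0.722), and -0.18 without post-partum replicate 2.

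The other named regulators differed from diestrus by -0.26 to 0.21 log2. At day 12 Srebf1, which encodes the SREBP form tied mainly to fatty acid synthesis, gave -0.15, Mbtps2 0.17, Insig2 0.21 and Rnf139, an endoplasmic reticulum ubiquitin ligase, 0.093. At day 19 Insig2 gave -0.26, and 0.11 without day 19 replicate 2. The escort gene Scap gave -0.077 at day 19, and 0.015 without diestrus replicate 2, and Rnf139 gave 0.061, and -0.035 without day 19 replicate 2. Post-partum Srebf1 gave 0.13. The site-1 protease gene Mbtps1 gave -0.18, and 0.048 without post-partum replicate 2, and Scap gave -0.032, and 0.059 without diestrus replicate 2.

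Genes of sterol uptake and transport inside the cell were measured for 10 of 11 listed. In any comparison 0 of 10 passed in either direction (0% of all genes). Their median log2 differences from diestrus were 0.085, -0.063 and 0.035 at day 12, day 19 and post-partum. Vldlr encodes the very-low-density lipoprotein receptor, which is abundant in heart. It was 10.66 and 10.59 at day 12, 10.53 and 10.20 at day 19, 9.88 and 10.04 post-partum and 10.60 and 10.21 in diestrus. Both post-partum arrays were below all other arrays, with a difference from diestrus of -0.45 ± 0.18 (limma, adjusted p = 0.722), and of -0.25 without diestrus replicate 2. The share of all genes with such a split was not counted.

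Further genes of that group were named by their p-values. At day 12 the sterol carrier Stard4, an SREBP-2 target, gave 0.31 ± 0.16 log2, the HDL receptor Scarb1 0.26, the endocytic receptor Lrp1 -0.22 and Vldlr 0.22. At day 19 the lysosomal cholesterol exporter Npc1 gave -0.38 ± 0.20, and -0.11 without replicate 2, and the receptor Lrp8 gave 0.27. Npc2, the partner of Npc1, gave 0.24 and the sterol transfer protein Osbpl5 -0.35, and without day 19 replicate 2 they gave -0.031 and -0.04. Post-partum Lrp8 gave 0.37 ± 0.16, Scarb1 0.22 and Mylip, a ubiquitin ligase for lipoprotein receptors, -0.19.

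Genes of the LXR response, efflux and esterification were measured for 6 of 8 listed. In any comparison 0 of 6 passed in either direction (0% of all genes). Nr1h2 and Soat1 had no probe set of a single symbol, so Soat1, the esterifying enzyme of the list, was not read. All 6 genes measured had a higher mean at day 12, by 0.01 to 0.22 log2, with a median of 0.10 against 0.017 over all genes. None of these had an unadjusted limma p under 0.05, and the share of all genes with a higher mean was not counted. At day 19 the median was 0.22 and post-partum 0.11, against -0.029 and -0.0037 over all genes. Ch25h, the cholesterol 25-hydroxylase whose product holds SREBP back and which macrophages induce under interferon, had the widest values. It was 5.53 and 5.75 at day 12, 6.20 and 9.42 at day 19, 6.57 and 6.44 post-partum and 5.38 and 5.49 in diestrus. The 6 arrays of the 3 states were all above both diestrus arrays, and day 19 replicate 2, on which the macrophage and interferon-stimulated markers were highest, stood apart at 9.42. The split from diestrus was picked from the values seen, and the share of all genes with it was not counted. The day 19 difference was 2.38 ± 0.83 log2 (limma, adjusted p = 0.657), and 0.77 without replicate 2. Post-partum it was 1.07 ± 0.83 and at day 12 0.21 ± 0.83. The SE comes from a spread shared by all groups, and the day 19 arrays lay far wider apart than those of any other group. What part the macrophage content had in the Ch25h values was not tested.

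In the same group Nr1h3, the LXR-alpha gene, gave 0.22 at day 12, 0.36 ± 0.16 at day 19 (limma, adjusted p = 0.657) and 0.15 post-partum, the last of which was -0.061 without post-partum replicate 4. The sterol exporters Abcg1 and Abca1 gave 0.37 and -0.15 at day 19, with Abcg1 at -0.25 without day 19 replicate 2, and Abcg1 gave 0.28 post-partum. Cyp27a1, the mitochondrial sterol 27-hydroxylase, was 7.13 and 7.88 post-partum against 8.07 and 8.08 in diestrus, a difference of -0.57 ± 0.23 (limma, adjusted p = 0.722), and -0.19 without post-partum replicate 2. At day 12 Cyp27a1 gave 0.12 and the cholesteryl ester hydrolase Nceh1 0.092.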

How the data were processed

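RNA (100 ng) from the left ventricle of 8 samples was labelled and hybridised to 1 array each, per the labels' protocols. The authors deposited log2 values for each probe set, made by RMA in Affymetrix Expression Console according to the submitters' processing notes (versions, settings, genome build: not given in the sources used here). RMA brings the arrays to 1 distribution, so a shift in total RNA cannot be seen. Of 34365 probe sets, 23521 have 1 gene symbol in the platform annotation, 1814 several and 9030 none here. Through Entrez identifiers 23328 of the first matched the RefSeq gene table (GRCm38.p6), and 0 symbols changed. Where a gene had several probe sets, that with the highest mean was read.

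Groups came from the sample titles. A gene was tested if at least 1 group mean reached 5.19, the median of all values, which kept 13872 of 22180 genes. In limma 3.58.1 (R 4.3.3), group means were fitted over the 8 arrays together, with 4 residual and 3.68 prior degrees of freedom, and two-sided p-values were adjusted by Benjamini-Hochberg over all genes tested. The fit was first tested on simulated data. Nothing in the labels says that replicates are separate animals, so p-values cover only the spread seen between samples. Precision is limited by having 2 arrays a group. The alternatives tried were array weights, a trended and robust variance, other low filters, centred arrays, the mean of probe sets, the compared groups alone, the replicate number as a block and each array left out.

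The members, the 4 further gene lists and the marker lists were chosen with earlier results of these data known. Genes named are all members and, per further list and comparison with diestrus, the 4 of smallest p. Genes of like pattern are the 5 of highest Pearson correlation with the members' mean, leaving out the lists, predicted genes, and olfactory, vomeronasal and small RNA genes. The form of the sterol element was settled after longer and shorter forms had been tried on these promoters, and the 3 promoters printed were picked after values and matches had been seen.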

Additional observations from a re-analysis of the deposited data

Results flagged for a closer look

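Sqle had states on either side of the diestrus mean. Relative to the diestrus mean, both day 19 arrays were above and both day 12 arrays below, and the states differed by 0.46 log2 (limma, adjusted p = 0.675). Likewise both post-partum arrays were below the diestrus mean and both day 19 arrays above, with a difference of -0.35 (adjusted p = 0.589). Day 19 itself differed from diestrus by only 0.063 ± 0.13 log2 (SE), and its arrays overlapped with those of diestrus, so the arrays apart from diestrus were those of day 12 and post-partum. Neither difference passed the test, Sqle was tested only through day 19 and diestrus, where it was higher, and the level was near the median of all values. Groups of 2 arrays are too small for a test of single outlying arrays.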

How the results depend on the processing

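No member was called in any of the 5 comparisons with array weights, with a trended, robust variance, with no low filter, with centred arrays, with probe sets averaged or with the 2 compared groups alone. The same held for the 4 members tested under the stricter low filter, which left out Sqle, Lss and Cyp51, and for the replicate block in day 12 against diestrus. With 1 array left out, the members called between day 19 and diestrus ranged from 0 to 1 (Cyp51, without day 19 replicate 1), and no other comparison gained one. Over all genes, array weights called 1 gene between day 12 and diestrus, and the trended and robust variance and the stricter low filter 1 each between post-partum and day 19. With 1 array left out, the genes called ranged from 0 to 1 at day 12, 0 to 1233 at day 19 and 0 to 3 post-partum against diestrus, from 0 to 1312 between day 19 and day 12, 0 to 872 between post-partum and day 19 and 0 to 663 by the F test. The highest counts for all but day 12 and post-partum against diestrus came without day 19 replicate 1, which leaves replicate 2 as the only day 19 array, assumed to vary like the other groups. The highest post-partum count against diestrus came without post-partum replicate 4. Without day 19 replicate 2, without post-partum replicate 4 or without diestrus replicate 2, the counts that were not 0 were 1 to 4. The cause of these counts was not tested. The replicate block could be fitted for day 12 and diestrus only, which share the numbers 2 and 3. It called 18 genes and 0 members, and same-numbered arrays had a correlation of deviations of 0.22. The labels do not say what a number marks.

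The median difference of the members ranged, with 1 array left out, from -0.24 to -0.06 at day 12, -0.13 to 0.0062 at day 19 and -0.26 to -0.14 post-partum against diestrus, and from -0.24 to -0.0078 between post-partum and day 19. Between day 19 and day 12 it was 0.025 with all arrays, but -0.027 without day 12 replicate 2 and -0.014 without day 12 replicate 3. Under the stricter filter some members were not tested, so no median was taken. Of 517 single differences under an alternative, 22 had the other sign than the value reported, over 16 comparisons of a member. None of the 22 was called. Many of the 517 could not change. Array weights, the variance, the filters, averaged probe sets, the compared groups alone and the block left each difference as it was. Only centring, or leaving out an array of a compared group, could move a difference, so the 517 are no measure of stability. Centring the arrays gave -0.016 for Fdps at day 12 and 0.018 for Lss at day 19. With 1 array left out, Fdps ranged from -0.16 to 0.16 at day 12, -0.13 to 0.19 at day 19 and -0.26 to 0.057 post-partum against diestrus, -0.063 to 0.11 between day 19 and day 12 and -0.28 to 0.025 between post-partum and day 19. Hmgcs1 ranged from -0.3 to 0.25 at day 19 and -0.031 to 0.2 post-partum against diestrus, -0.5 to 0.061 between day 19 and day 12 and -0.17 to 0.39 between post-partum and day 19. Lss ranged from -0.48 to 0.061 at day 12, -0.28 to 0.26 at day 19 and -0.44 to 0.1 post-partum. Cyp51 ranged from -0.42 to 0.043 at day 12 and -0.4 to 0.065 post-partum. Srebf2 ranged from -0.17 to 0.048 at day 19 against diestrus and -0.014 to 0.24 between day 19 and day 12. Sqle and Fdft1 kept their sign in all 5 comparisons under the alternatives in which they were tested.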
